A study of Sus scrofa with 8 samples.

Results

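Solute carriers (SLC genes) are the membrane proteins that move amino acids, sugars, carboxylates, ions, metals and vitamins across the plasma membrane and the membranes of organelles. In cultured pig muscle cells, 102 SLC genes were described here, taken from 25285 genes. They were all genes whose symbol begins with SLC, a number and the letter A, without the mitochondrial SLC25A family, whose FPKM averaged 1 or more across the 8 libraries. FPKM divides a gene's fragments by transcript length and by library size, so it is a level per length. Where a symbol occurred more than once, the gene with the highest mean was kept. The symbol pattern occurred 219 times and gave 215 symbols, of which 113 lay below the mean of 1 FPKM, and 12 of these were listed at 0 in all libraries. The pattern keeps only the A members of SLC35, and it also takes in 3 genes that are not carriers: SLC9A3R1, SLC9A3R2 and SLC4A1AP, a pair of scaffold proteins and an adaptor protein named after a carrier. Because the mean over all libraries chose the genes, their level is a description and not a result.

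Carriers work as uniporters, as exchangers that trade 1 solute for another, or as cotransporters that use the sodium or proton gradient. Proliferating myoblasts import amino acids and glucose for growth and export lactate with a proton. When myoblasts leave the cell cycle and fuse, the fibre takes on another set of needs: glucose uptake under insulin, calcium and pH control during contraction, and creatine and metal supply for its enzymes.

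The cells were primary skeletal muscle cells of pigs of the strain LYD, kept in vitro either undifferentiated or differentiated, from females or males. Each of the 4 combinations of state and sex had 2 libraries, which gave 4 libraries per state. The animals' age, the days in culture and whether libraries came from separate animals are not given in the sources used here, so p-values cover the spread among the libraries and nothing beyond it. Sets of 4 values are given in the order female 1, female 2, male 1, male 2.

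The depth in reads is unknown, since the values are FPKM. An estimate from low values put the undifferentiated libraries at 1.67 to 2.30 times the shallowest library and the other differentiated libraries at 1.26 to 1.65 times. All 8 muscle genes used as a check of the labels rose in differentiated cells, and all 7 tested proliferation genes fell. The differentiated male 1 library kept the highest MKI67, a proliferation marker, of its state (8.57 FPKM against 2.57 to 3.68). Fibroblast genes were present in both states, with 9 of the 10 markers found. Their summed level was 375 to 795 FPKM in undifferentiated and 611 to 1508 in differentiated libraries. Of 8 tested markers 4 rose (50%) and COL1A2 fell (12.5%), beside 18.0% and 31.9% of all tested genes. Differentiated male 1 was the highest of its state in each tested marker. Without this library the log2 fold changes of the 4 risen markers were 0.81 for FAP (0.997 with it), 0.62 for PDGFRB (0.95), 2.43 for COL1A1 (2.59) and 1.549 for COL3A1 (1.555). Summed levels were 2.55 to 5.19 against 3.06 to 6.24 FPKM for 4 adipocyte markers, 2.71 to 6.43 against 2.82 to 7.53 for 6 endothelial markers, 12.3 to 17.1 against 4.18 to 6.42 for 7 immune markers and 4.43 to 7.21 against 2.34 to 3.94 for 6 Schwann cell markers. PLIN1 and LEP (adipocyte), CSF1R (macrophage) and GFAP (glia) were listed at 0 in all undifferentiated libraries, while other genes of the same lists were present there: CEBPA (adipocyte) at 2.40 to 5.19, CD14 (immune) at 11.5 to 15.2 and S100B (Schwann cell) at 3.72 to 7.07 FPKM. CD14 and S100B fell in differentiated cells, by 2.24 and 1.02 on the log2 scale (limma adjusted p = 9.12e-05 and 0.0187), and the S100B call was lost without differentiated male 1. The part of these markers in the changes of the carriers was not tested.

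More SLC genes were lower than higher in differentiated cells. By limma on log2(FPKM + 1), averaged over the sexes, 15 of the 102 rose, 41 fell and 46 did not pass an adjusted p of 0.05. Among all 12963 tested genes, 18.0% rose and 31.9% fell, against 14.7% and 40.2% of the SLC genes. The median log2 fold change was -0.34 for the SLC genes and -0.18 for all tested genes. On this scale the largest rises were those of SLC15A2, SLC6A13 and SLC31A2, and the largest falls those of SLC2A13, SLC38A1 and SLC7A1. In the members that rose, 9 had a log2 fold change above 1, and in those that fell 21 lay below -1. Without overlap of the 4 libraries of each state, 15 members lay above and 36 below in differentiated cells, against 17.1% and 30.2% of all tested genes. In bulk RNA, fewer cells of a type and less RNA per cell cannot be told apart. A fold change on this scale understates the change of low genes.

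The filter bears on the rises more than on the falls. Of the 15 members that rose, 7 reached a state mean of 1 FPKM only in differentiated cells (SLC15A2, SLC7A4, SLC6A13, SLC46A3, SLC22A18, SLC2A12 and SLC5A10), and such genes had to differ to be listed. The p-values given below for these 7 are descriptions and not support for a rise. They include SLC15A2 and SLC6A13, named above among the largest rises. Among the 92 members at or above 1 FPKM in both states, 8 rose and 41 fell. The shares of all genes at or above 1 FPKM in both states were not computed. These counts therefore do not show whether the split is particular to the SLC genes. Scaling the libraries by median ratios raised the all-gene median from -0.18 to 0.00 on the log2 scale. Relative to that centre 18 members rose and 28 fell, so that falls made up 60.9% of the called members against 73.2% without the scaling. For all tested genes the share of falls among called genes moved from 63.9% to 49.0%. Without the differentiated male 1 library 10 members rose, and the same number rose without undifferentiated female 1 or differentiated female 2.

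**Figure D1:**
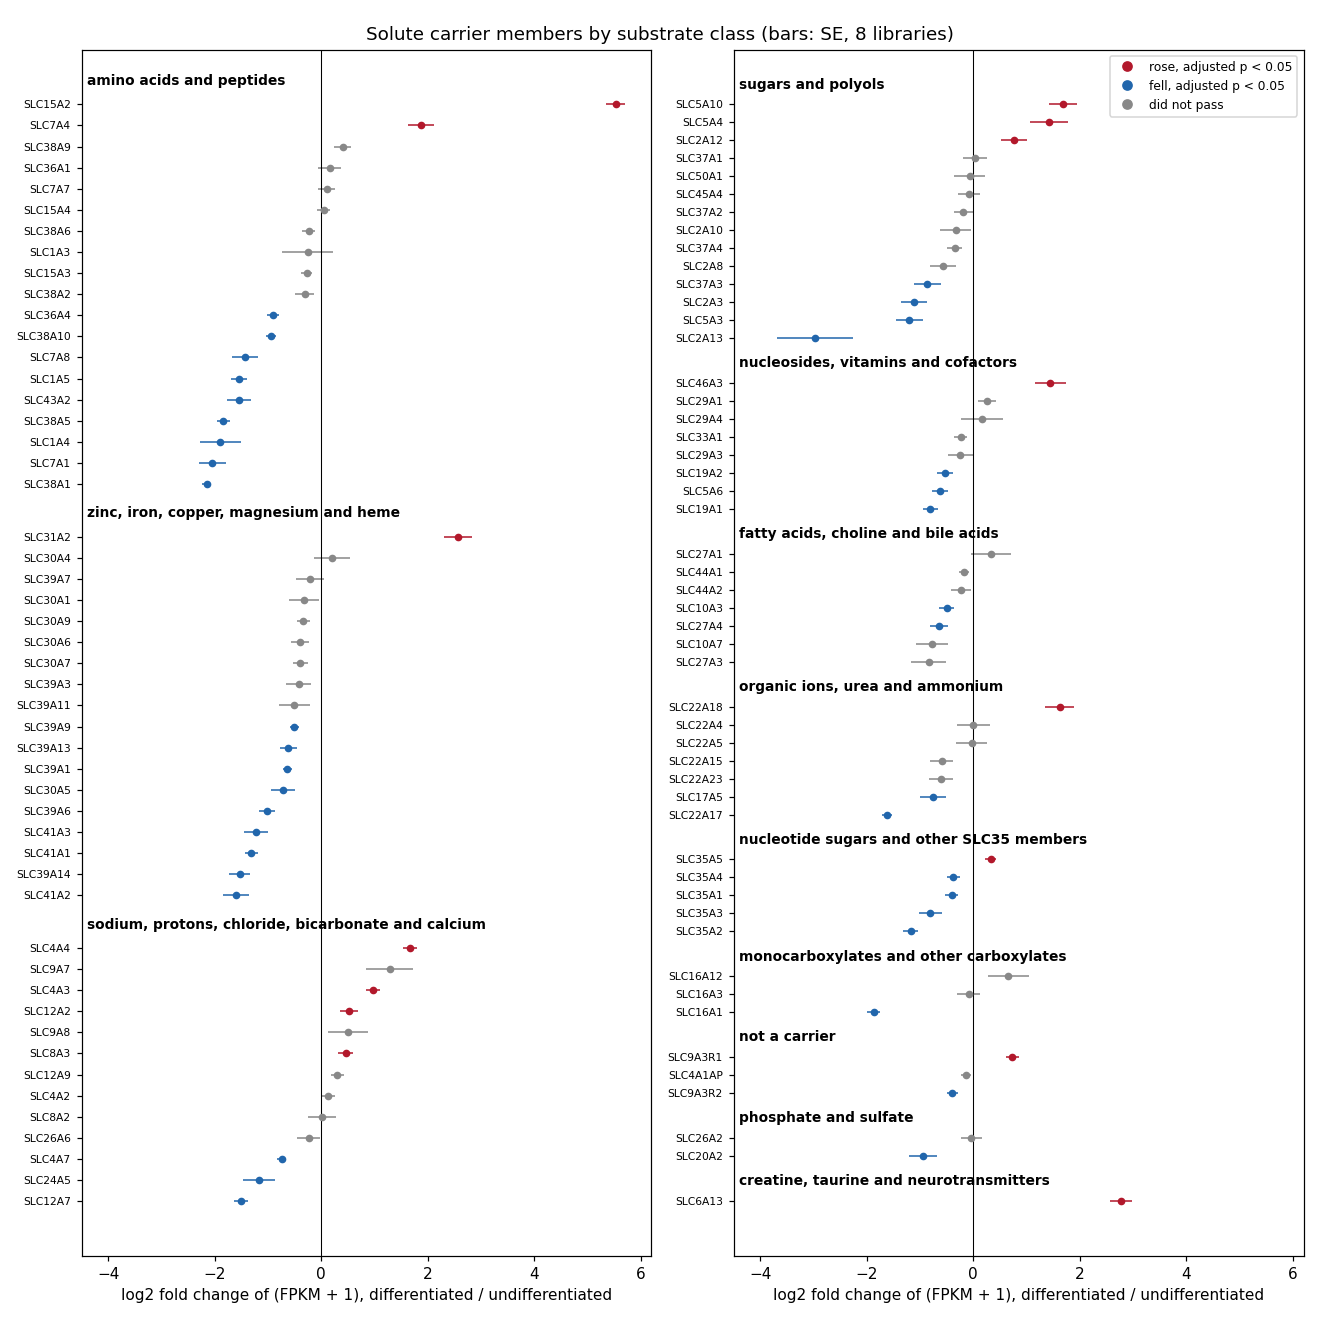
Log2 fold change of FPKM + 1, differentiated over undifferentiated cells, for 100 of the 102 members, grouped by substrate class. Points are estimates over 8 libraries and bars are SE; red members rose, blue fell and grey did not pass. The 9 blue and 2 red points of the amino acid class and the single red point among 18 metal carriers are visible at the left. The positions of SLC6A13 and SLC22A18, both listed at 0 in undifferentiated cells, depend on the pseudocount.

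Amino acid carriers formed the largest class, with 19 members, of which 9 fell, 2 rose and 8 did not pass. The falls were 47.4% of the class and the rises 10.5%, beside 31.9% and 18.0% of all tested genes. The largest fall was that of SLC38A1 (chromosome 5, 79937452 to 80001030, build Sscrofa10.2), a sodium-coupled importer of glutamine and other neutral amino acids. Its level was 71.5, 62.3, 65.6 and 65.6 FPKM in undifferentiated and 11.5, 10.1, 18.9 and 17.8 FPKM in differentiated libraries. Every undifferentiated library was above every differentiated one, and the differentiated female libraries were the lowest. The means were 66.2 ± 3.83 and 14.6 ± 4.39 FPKM (SD, n = 4), a log2 fold change of -2.15 ± 0.09 (SE, limma adjusted p = 2.77e-05).

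SLC7A1 (chromosome 11, 6181362 to 6188211), the main importer of arginine and lysine in many cell types, was at 44.5, 31.3, 39.7 and 22.1 FPKM in undifferentiated and at 7.68, 5.11, 10.5 and 6.83 FPKM in differentiated libraries. The states did not overlap, although the undifferentiated libraries spread over a wide range. Its log2 fold change was -2.04 ± 0.26 (SE, limma adjusted p = 0.00137). SLC1A4 (chromosome 3, 80818057 to 80833358), an exchanger of alanine, serine and cysteine, fell from 13.5, 12.8, 15.7 and 16.2 FPKM to 0.816, 5.47, 4.36 and 3.85 FPKM, with the differentiated female 1 library lowest. Its log2 fold change was -1.89 ± 0.38 (SE, limma adjusted p = 0.0082).

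The remaining 6 falls in this class were named to complete it. SLC1A5, the glutamine exchanger ASCT2, was at 44.9, 50.2, 48.2 and 55.4 FPKM in undifferentiated and 10.8, 13.2, 26.8 and 18.4 FPKM in differentiated libraries, without overlap (log2 fold change -1.54 ± 0.15, limma adjusted p = 0.000511). SLC38A5, a glutamine and histidine carrier of the same family as SLC38A1, had a log2 fold change of -1.84 ± 0.12 (limma adjusted p = 0.000158). For SLC43A2, a uniporter of large neutral amino acids, it was -1.55, and for SLC7A8, an exchanger of neutral amino acids, -1.43. SLC38A10 fell by 0.94 and SLC36A4 by 0.90 on the log2 scale. In each of these 6 genes the 4 libraries of 1 state lay clear of the 4 of the other.

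The pair of rises went the other way by a wide margin. SLC15A2 (chromosome 13, 148222430 to 148259036), the proton-coupled importer of dipeptides and tripeptides PEPT2, was at 0.109, 0, 0.121 and 0.0742 FPKM in undifferentiated and at 52.6, 36.9, 65.6 and 44.5 FPKM in differentiated libraries. It was near 0 in every undifferentiated library and the second highest member of the differentiated state. Its log2 fold change was 5.53 ± 0.18 (SE, limma adjusted p = 1.06e-05). SLC7A4 (chromosome 14, 54082608 to 54086092), a relative of the cationic carriers, rose from 0.972 ± 0.528 to 6.23 ± 1.76 FPKM (SD, n = 4), a log2 fold change of 1.88 ± 0.24 (SE, limma adjusted p = 0.00151).

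Members of the class that did not pass had log2 fold changes from -0.31 in SLC38A2 to 0.41 in SLC38A9. SLC38A2, a sodium-coupled importer that cells regulate by amino acid supply, was at 42.7 ± 5.66 and 34.8 ± 8.34 FPKM in the 2 states and overlapped (limma adjusted p = 0.181). A second gene of that symbol, which the rule left out for its lower mean, fell by 0.68 on the log2 scale (limma adjusted p = 0.0245). SLC38A9, which reports lysosomal arginine to the growth kinase mTORC1, was at 7.58 ± 1.06 and 10.5 ± 2.19 FPKM (limma adjusted p = 0.079). SLC15A4, the lysosomal carrier of histidine and peptides, was at 17.5 ± 2.90 and 18.0 ± 1.54 FPKM.

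Genes that sense amino acids or belong to the ATF4 response, the programme that induces many amino acid carriers in starved cells, were listed separately. Of 14 tested, 11 fell (78.6%, against 31.9% of all tested genes) and 3 rose (21.4%, against 18.0%). ATF4 itself had a log2 fold change of -1.53 (limma adjusted p = 0.000392). PSAT1 and PHGDH, enzymes of serine synthesis, had log2 fold changes of -3.60 and -3.57, and CHAC1, a glutathione-degrading enzyme, -2.50. Among differentiated libraries male 1 stood apart in these genes, with PSAT1 at 54.6 against 11.8 to 16.7, PHGDH at 36.9 against 5.24 to 8.99 and CHAC1 at 12.6 against 2.65 to 4.58 FPKM. The same library was the highest of its state in MKI67 and in the fibroblast marker PDGFRB (46.7 against 9.58 to 18.1 FPKM). Without it 11 genes of the list still fell and 3 rose, and the log2 fold changes were -4.04 for PSAT1, -4.05 for PHGDH and -2.82 for CHAC1. RRAGD, a GTPase that recruits mTORC1 to lysosomes, rose by 2.55 on the log2 scale, ASNS, asparagine synthetase, by 1.11 and SESN1, a sestrin, by 0.97.

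**Figure D2:**
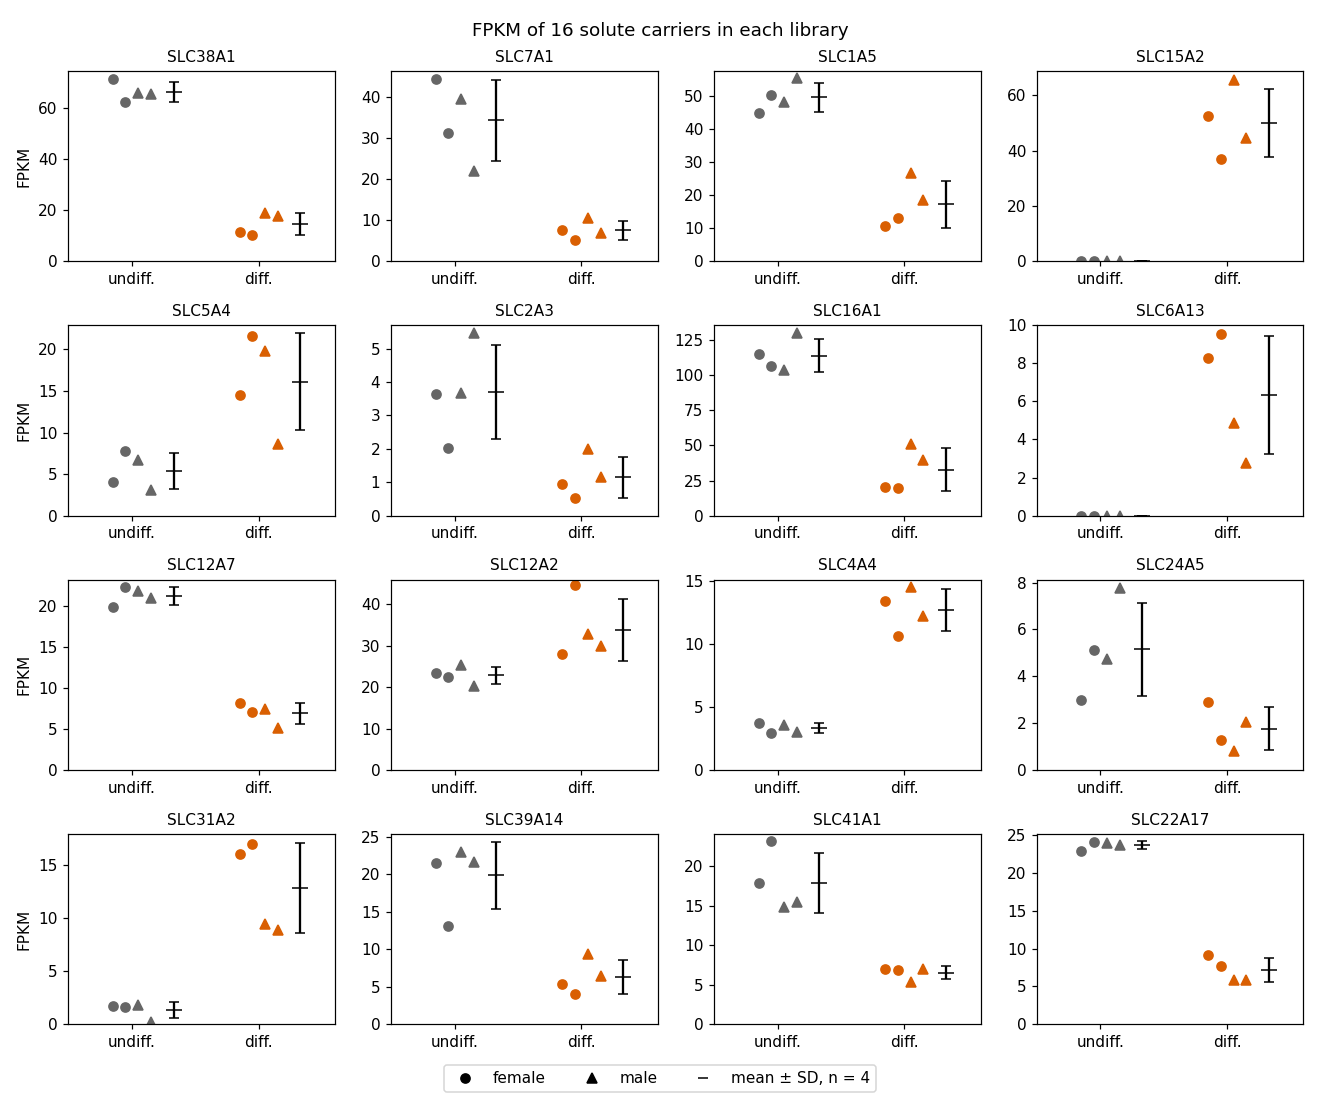
FPKM of 16 members in each of the 8 libraries, with circles for females, triangles for males, and the mean ± SD of 4 libraries beside each state. SLC38A1 lies between 62.3 and 71.5 FPKM in undifferentiated and between 10.1 and 18.9 FPKM in differentiated libraries, while SLC15A2 is near 0 in the first and between 36.9 and 65.6 FPKM in the second.

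Among 14 carriers of sugars and polyols 3 rose, 4 fell and 7 did not pass. These shares, 21.4% and 28.6%, were near those of all tested genes (18.0% and 31.9%). SLC5A4 (chromosome 14, 52153413 to 52186822), of the sodium and glucose cotransporter family, was at 4.00, 7.76, 6.66 and 3.09 FPKM in undifferentiated and 14.5, 21.6, 19.8 and 8.63 FPKM in differentiated libraries. The lowest differentiated library, male 2, stood just above the highest undifferentiated one. The log2 fold change was 1.42 ± 0.36 (SE, limma adjusted p = 0.0191), and the call was lost without any 1 of undifferentiated female 1, undifferentiated male 2, differentiated female 2 or differentiated male 1 (adjusted p up to 0.0695).

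SLC5A10, a cotransporter of mannose and fructose, was at 0.198, 0, 0 and 0 FPKM in undifferentiated and 1.90, 2.33, 1.77 and 3.71 FPKM in differentiated libraries (limma adjusted p = 0.00291). SLC2A12, the facilitative glucose carrier GLUT12, was at 0.216, 1.08, 1.34 and 1.00 against 2.14, 1.67, 2.22 and 2.67 FPKM. Both were low genes whose differentiated libraries all lay above the undifferentiated ones. The SLC2A12 call (limma adjusted p = 0.0385) was lost in 7 of the 8 fits that left out 1 library, the exception being undifferentiated female 2.

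The myo-inositol carriers were lower in differentiated cells. SLC5A3 (chromosome 13, 207541727 to 207543337), the sodium-coupled myo-inositol importer, fell from 8.72, 8.79, 12.3 and 7.29 to 4.13, 2.26, 4.97 and 2.75 FPKM, a log2 fold change of -1.20 ± 0.25 (SE, limma adjusted p = 0.00933). SLC2A13 (chromosome 5, 73929817 to 74023533), the proton-coupled one, was at 11.0, 59.7, 13.7 and 7.50 FPKM in undifferentiated and 0, 1.27, 0.551 and 5.87 FPKM in differentiated libraries. The states did not overlap, but undifferentiated female 2 held most of the undifferentiated signal. Its log2 fold change was -2.97 ± 0.71 (SE, limma adjusted p = 0.0154), and the call was lost without undifferentiated male 1 or differentiated female 1. A second gene model named SLC2A13, outside the symbol rule, fell by 1.96 on the log2 scale and is described at the end.

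SLC2A3 (chromosome 5, 65800934 to 65810886), the high-affinity glucose carrier GLUT3, fell from 3.65, 2.01, 3.68 and 5.46 to 0.939, 0.522, 1.99 and 1.16 FPKM (log2 fold change -1.12 ± 0.24, limma adjusted p = 0.0104). SLC37A3 was the remaining fall (-0.86), and its call was lost in 5 of the 8 fits without 1 library, those without undifferentiated female 1, undifferentiated female 2, undifferentiated male 1, differentiated female 1 or differentiated female 2 (adjusted p up to 0.0931). SLC2A4, the insulin-responsive carrier GLUT4, was below the threshold: its higher gene was at 0, 0.0804, 0 and 0.21 FPKM in undifferentiated and 0.367, 0.888, 0.671 and 0.141 FPKM in differentiated libraries. These values overlapped and were not tested.

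Of 14 genes of GLUT4 vesicle traffic and insulin signalling, 5 rose (35.7%), 4 fell (28.6%) and 5 did not pass, beside 18.0% and 31.9% of all tested genes. TBC1D1 and TBC1D4, the RAB GTPase-activating proteins that hold GLUT4 vesicles inside the cell, rose by 1.80 and 1.66 on the log2 scale, and STX4, the syntaxin at which those vesicles fuse, by 0.54. IRS1, the insulin receptor substrate, had a log2 fold change of -1.10, SORT1, a sorting receptor of the vesicles, -0.64, and STXBP3, a syntaxin-binding protein, -0.63. In hexose handling after uptake 6 of 10 genes rose and 4 fell (60% and 40%, against the same background). PYGM, muscle glycogen phosphorylase, rose by 7.19, GYG1, the primer protein of glycogen, by 1.78 and UGP2, which makes UDP-glucose, by 1.50. The hexokinases HK1 and HK2 had log2 fold changes of -1.04 and -0.78.

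Among 3 carboxylate carriers 1 passed the test. SLC16A1 (chromosome 4, 117603634 to 117614944), the proton-coupled lactate and pyruvate carrier MCT1, was at 115, 106, 104 and 130 FPKM in undifferentiated and 20.5, 20.0, 51.2 and 39.6 FPKM in differentiated libraries. It was the highest member of the undifferentiated state, and both differentiated female libraries were below both male ones. The log2 fold change was -1.87 ± 0.12 (SE, limma adjusted p = 0.000142). SLC16A3, the lactate exporter MCT4 of glycolytic muscle, was at 5.73, 6.38, 10.5 and 9.78 against 7.05, 14.2, 5.80 and 4.79 FPKM, with overlapping states and a limma adjusted p of 0.748. SLC16A12, linked to creatine transport, was at 1.16 ± 0.404 and 2.62 ± 1.602 FPKM (limma adjusted p = 0.198).

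Of 4 tested genes of lactate handling and carrier chaperones, 3 fell and 1 rose, where 31.9% and 18.0% of all tested genes did. LDHA, the lactate dehydrogenase subunit that favours lactate production, was at 624 ± 126 FPKM in undifferentiated and 124 ± 35.8 FPKM in differentiated cells (log2 fold change -2.35, limma adjusted p = 0.000539). EMB and BSG, the chaperones that bring monocarboxylate carriers to the surface, had log2 fold changes of -2.03 and -0.98. CA3, a carbonic anhydrase of muscle, rose by 5.53 on the log2 scale.

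Of 15 carriers of sodium, protons, chloride, bicarbonate and calcium 4 rose, 5 fell and 6 did not pass. The falls, 33.3%, were near the 31.9% of all tested genes, and the rises were 26.7% against 18.0%. When no filter was set on low values 2 members of the class rose, and the share of all genes that rose was then 10.19%. SLC4A4 (chromosome 8, 71840474 to 72050171), a sodium and bicarbonate cotransporter, was at 3.71, 2.90, 3.54 and 3.03 FPKM in undifferentiated and 13.4, 10.6, 14.5 and 12.2 FPKM in differentiated libraries. The 2 sets lay far apart relative to their spread, with a log2 fold change of 1.67 ± 0.13 (SE, limma adjusted p = 0.000294). SLC4A3, an exchanger of chloride and bicarbonate known from heart and brain, rose from 2.62 ± 0.587 to 6.04 ± 0.76 FPKM (SD, n = 4, log2 fold change 0.97, limma adjusted p = 0.00183).

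The chloride cotransporters moved in opposite directions. SLC12A7 (chromosome 16, 86015929 to 86038151), the potassium and chloride exporter KCC4, was at 19.9, 22.4, 21.9 and 21.0 FPKM in undifferentiated and 8.15, 7.15, 7.42 and 5.15 FPKM in differentiated libraries, without overlap (log2 fold change -1.50 ± 0.13, limma adjusted p = 0.000359). SLC12A2 (chromosome 2, 136368428 to 136457596), the sodium, potassium and chloride importer NKCC1, was at 23.3, 22.5, 25.4 and 20.4 against 28.0, 44.8, 32.8 and 29.9 FPKM. All differentiated libraries were above the undifferentiated ones, female 2 most. The log2 fold change was 0.53 ± 0.17 (SE, limma adjusted p = 0.0396), and the call was lost in 7 of the 8 fits without 1 library, the exception being differentiated female 1. SLC12A9, an orphan member of that family, was at 4.87 ± 0.597 and 6.23 ± 0.743 FPKM (limma adjusted p = 0.0863).

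SLC4A7, an electroneutral sodium and bicarbonate cotransporter, fell by 0.74 on the log2 scale (limma adjusted p = 0.000782), while its relative SLC4A4 rose. SLC24A5, an exchanger of sodium for calcium and potassium best known from pigment cells, fell from 2.98, 5.13, 4.76 and 7.78 to 2.91, 1.29, 0.793 and 2.04 FPKM (limma adjusted p = 0.0215). The lowest undifferentiated library stood just above the highest differentiated one, both female 1, and the call was lost without undifferentiated female 2, undifferentiated male 2, differentiated female 2 or differentiated male 1 (adjusted p up to 0.073).

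SLC8A3, the sodium and calcium exchanger of skeletal muscle, had a log2 fold change of 0.46 (limma adjusted p = 0.0388) with overlapping states, and its call was lost in 6 of the 8 fits without 1 library, those other than undifferentiated male 1 and differentiated male 2. SLC9A7, a sodium and proton exchanger of the Golgi, was at 0.777, 0.677, 1.42 and 4.80 against 8.11, 5.66, 7.58 and 1.83 FPKM. The male 2 libraries held the highest undifferentiated and the lowest differentiated value, and the gene did not pass (limma adjusted p = 0.0517).

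Of 6 tested sodium pump subunits, which build the gradient that many carriers use, 3 rose and 2 fell, beside 18.0% and 31.9% of all tested genes. ATP1B4, a muscle subunit that is not part of the pump in mammals, rose by 4.33 and FXYD1, the pump regulator phospholemman, by 2.52 on the log2 scale. FXYD5, another regulator, had a log2 fold change of -1.29 and ATP1B1, the common beta subunit, -0.83. Of 5 genes of the kinase pathway that sets chloride cotransport, 1 rose (20%) and 2 fell (40%), against 18.0% and 31.9%. WNK1 rose by 0.32 on the log2 scale. STK39, a kinase that activates NKCC1, fell from 48.5 ± 4.90 to 7.41 ± 2.29 FPKM (log2 fold change -2.60, limma adjusted p = 0.000106). OXSR1, a kinase of the same list, was at 50.8 ± 3.17 and 47.8 ± 6.80 FPKM and did not pass (log2 fold change -0.09, limma adjusted p = 0.428). LRRC8A, a subunit of the volume-regulated anion channel, had a log2 fold change of -1.23.

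Of 18 members that carry zinc, iron, copper, magnesium or heme, 9 fell (50%, against 31.9% of all tested genes), 1 rose (5.56%, against 18.0%) and 8 did not pass. Most of the falls lay in the families that bring metal into the cytosol and in magnesium transport. Of the 8 SLC39 members, zinc importers, 5 fell, and all 3 SLC41 members, magnesium carriers, fell. Most of the 6 SLC30 members carry zinc out of the cytosol, while SLC30A9 exports it from mitochondria. Of these 6 members 1 (SLC30A5) fell. Its call was lost in 6 of the 8 fits without 1 library, those other than differentiated male 1 and differentiated male 2. The difference between the SLC39 and SLC30 families was not tested.

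SLC39A14 (chromosome 14, 7073529 to 7120390), which imports zinc, iron and manganese, was at 21.5, 13.1, 23.0 and 21.6 FPKM in undifferentiated and 5.44, 4.04, 9.39 and 6.45 FPKM in differentiated libraries. Both female 2 libraries were the lowest of their state, and the states did not overlap (log2 fold change -1.53 ± 0.20, limma adjusted p = 0.00153). SLC39A6 had a log2 fold change of -1.01, SLC39A1 -0.63, SLC39A13 -0.62 and SLC39A9 -0.50, and the SLC39A13 call was lost without undifferentiated female 1, undifferentiated female 2, undifferentiated male 2 or differentiated female 2 (adjusted p up to 0.0704). SLC39A7 has 2 overlapping gene models whose fragments may be shared, so its values are uncertain, and neither model passed.

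SLC41A1 (chromosome 9, 72739714 to 72763825), the plasma membrane magnesium carrier, fell from 17.9, 23.2, 14.8 and 15.5 to 6.94, 6.88, 5.30 and 7.00 FPKM (log2 fold change -1.31 ± 0.13, limma adjusted p = 0.000548). SLC41A2 (chromosome 5, 83018171 to 83117985) fell from 11.4, 8.24, 6.27 and 11.0 to 1.16, 0.945, 5.67 and 3.15 FPKM (log2 fold change -1.61 ± 0.24, limma adjusted p = 0.0026). In differentiated cells its 2 female libraries were lower than its male ones. SLC41A3 fell by 1.23 on the log2 scale.

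The single rise was SLC31A2 (chromosome 1, 284589320 to 284600766), a copper carrier of endosomes and lysosomes. It was at 1.76, 1.62, 1.83 and 0.256 FPKM in undifferentiated and 16.1, 17.0, 9.44 and 8.93 FPKM in differentiated libraries. Every differentiated library exceeded every undifferentiated one, females more than males, with a log2 fold change of 2.57 ± 0.26 (SE, limma adjusted p = 0.000615). SLC30A9, a mitochondrial zinc exporter and the highest of the class, was at 42.8 ± 4.94 and 33.7 ± 4.09 FPKM (limma adjusted p = 0.0592).

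Of 8 tested genes of iron, zinc and copper handling, 6 fell, 1 rose and 1 did not pass. The falls were 75% and the rises 12.5%, against 31.9% and 18.0% of all tested genes. FTL, the ferritin light chain, had a log2 fold change of -2.38, MT2A, a metallothionein that binds zinc and copper, -2.15, and HMOX1, which frees iron from heme, -1.81. Undifferentiated male 2 stood apart in MT2A, at 326 FPKM against 58.4 to 77.4 in the other undifferentiated libraries. IREB2, an iron-sensing RNA-binding protein, rose by 0.43 on the log2 scale.

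In the class of nucleosides, vitamins and cofactors 3 of 8 members fell and 1 rose, and 37.5% and 12.5% were near the 31.9% and 18.0% of all tested genes. SLC19A1 (chromosome 13, 218092026 to 218113606), the reduced folate carrier, was at 16.4, 15.9, 14.0 and 13.4 FPKM in undifferentiated and 6.98, 8.80, 9.999 and 6.95 FPKM in differentiated libraries, without overlap (log2 fold change -0.81 ± 0.14, limma adjusted p = 0.00423). SLC5A6, the sodium-coupled importer of biotin and pantothenate, fell by 0.63 on the log2 scale (limma adjusted p = 0.0166), a call lost without undifferentiated female 1, undifferentiated female 2, undifferentiated male 1 or differentiated female 2. SLC19A2, a thiamine importer, fell by 0.53, a call lost in 5 of the 8 fits without 1 library, those without undifferentiated female 1, undifferentiated male 1, differentiated female 1, differentiated female 2 or differentiated male 1.

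SLC46A3 (chromosome 11, 5678755 to 5692527), a lysosomal carrier, rose from 0.703, 0.79, 0.226 and 0.407 to 5.13, 1.85, 3.62 and 2.58 FPKM (log2 fold change 1.45 ± 0.29, limma adjusted p = 0.00777). SLC29A1, the equilibrative nucleoside carrier ENT1 and the highest of the class, was at 15.6 ± 2.72 and 18.9 ± 3.89 FPKM and overlapped (limma adjusted p = 0.261). Of 7 genes that use folate, nucleosides or choline, 5 fell (71.4%, against 31.9% of all tested genes) and none rose at an adjusted p of 0.05. TYMS, thymidylate synthase, had a log2 fold change of -2.20, DCK, deoxycytidine kinase, -1.66, and CHKA, choline kinase, -1.41.

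Carriers of fatty acids, choline and bile acids gave 2 falls in 7 members, 28.6% against 31.9% of all tested genes. SLC44A1 (chromosome 1, 276190886 to 276352741), the choline carrier CTL1, was at 89.1, 85.0, 82.8 and 94.7 FPKM in undifferentiated and 89.4, 75.6, 72.2 and 74.0 FPKM in differentiated libraries. It was the highest member of the differentiated state and did not pass (log2 fold change -0.18 ± 0.09, limma adjusted p = 0.16). SLC10A3, an orphan relative of the bile acid carriers, and SLC27A4, a fatty acid carrier, had limma adjusted p-values of 0.0307 and 0.0228. The SLC10A3 call was lost in 6 of the 8 fits without 1 library, those other than differentiated female 1 and differentiated male 1. The SLC27A4 call was lost in 5, those other than undifferentiated female 2, undifferentiated male 1 and differentiated female 1. SLC27A1, the fatty acid carrier of muscle, was at 1.87 ± 0.345 and 2.91 ± 1.76 FPKM (limma adjusted p = 0.495).

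All 5 SLC35A members, Golgi carriers of nucleotide sugars and their relatives, passed the test, with 4 falls and 1 rise, where 31.9% and 18.0% of all tested genes fell and rose. SLC35A2 (chromosome X, 47820826 to 47831622), the UDP-galactose carrier, was at 11.5, 15.9, 14.5 and 13.7 FPKM in undifferentiated and 4.34, 5.96, 5.78 and 6.24 FPKM in differentiated libraries (log2 fold change -1.18 ± 0.14, limma adjusted p = 0.00122). The other four depended on single libraries: SLC35A1, the CMP-sialic acid carrier (-0.41), SLC35A3, the UDP-N-acetylglucosamine carrier (-0.81), SLC35A4 (-0.38) and SLC35A5 (0.33) had limma adjusted p-values of 0.0358, 0.0214, 0.0431 and 0.0405. Their calls were lost in 6, 5, 7 and 7 of the 8 fits without 1 library. The exceptions were undifferentiated female 2 and differentiated male 1 for SLC35A1, both undifferentiated male libraries and differentiated male 1 for SLC35A3, undifferentiated male 2 for SLC35A4 and undifferentiated male 1 for SLC35A5. With median-ratio scaling 1 fall was left in this class.

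In the organic ion class 2 of 7 members fell and 1 rose, shares of 28.6% and 14.3% near those of all tested genes (31.9% and 18.0%). SLC22A17 (chromosome 7, 80999611 to 81006075), the receptor for the iron-binding protein lipocalin-2, was at 22.9, 24.1, 23.9 and 23.7 FPKM in undifferentiated and 9.17, 7.69, 5.84 and 5.85 FPKM in differentiated libraries. The undifferentiated libraries hardly varied, and the log2 fold change was -1.62 ± 0.09 (SE, limma adjusted p = 7.7e-05). SLC17A5, the lysosomal sialic acid exporter, had a limma adjusted p of 0.045, a call lost in 6 of the 8 fits without 1 library, those other than undifferentiated male 2 and differentiated female 1. SLC22A18 (chromosome 2, 607387 to 612728), an orphan carrier, reached 1.25, 2.98, 1.96 and 2.40 FPKM in differentiated libraries, while each undifferentiated library listed it at 0 (limma adjusted p = 0.00377).

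SLC6A13 (chromosome 5, 69865305 to 69898005), the GABA and taurine carrier GAT2, was the only member that the symbol rule gave for the creatine, taurine and neurotransmitter class above the threshold. The creatine importer SLC6A8 was also above it, with a mean of 16.9 FPKM, but lay outside the symbol rule. SLC6A8 fell (limma adjusted p = 0.00495) and is described at the end. Differentiated libraries held 8.26, 9.53, 4.87 and 2.75 FPKM of SLC6A13, females above males, and each undifferentiated library listed it at 0. SLC6A13 passed the filter only through the differentiated libraries, so its limma adjusted p of 0.000229 is a description. Its neighbour SLC6A12, the betaine and GABA carrier BGT1, lay below the threshold with a mean of 0.737 FPKM. It was at 0, 0, 0.0585 and 0 FPKM in undifferentiated and 1.66, 2.35, 1.08 and 0.74 FPKM in differentiated libraries, which is given as a description. Of 4 tested genes of creatine synthesis and use, CKM, muscle creatine kinase, rose by 8.84 on the log2 scale and GAMT, which completes creatine synthesis, had a log2 fold change of -1.09.

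The phosphate importer SLC20A2 (chromosome 17, 12887493 to 12901718) fell from 5.29, 12.3, 9.39 and 8.24 to 3.15, 4.52, 4.23 and 3.88 FPKM (limma adjusted p = 0.0235), a call lost in 5 of the 8 fits without 1 library, those other than undifferentiated female 1, undifferentiated female 2 and differentiated female 2. The sulfate carrier SLC26A2 was at 7.27 ± 2.58 and 6.87 ± 1.20 FPKM (limma adjusted p = 0.892). Of the 3 genes that are not carriers, SLC9A3R1 (chromosome 12, 6455089 to 6472594), a scaffold that anchors carriers to the cytoskeleton, rose from 4.64 ± 0.33 to 8.39 ± 1.16 FPKM (log2 fold change 0.73, limma adjusted p = 0.00433). SLC9A3R2, a scaffold of the same kind, fell by 0.39 on the log2 scale, a call lost in 6 of the 8 fits without 1 library, those other than undifferentiated male 1 and differentiated female 2. SLC4A1AP was at 21.1 ± 2.02 and 19.0 ± 0.81 FPKM (limma adjusted p = 0.238).

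Summed over the 102 members, the libraries held 1467 to 1504 FPKM in undifferentiated and 978 to 1132 FPKM in differentiated cells. The amino acid class held 387 to 392 against 195 to 285 FPKM and the metal class 274 to 311 against 169 to 221 FPKM. The carboxylate class, most of it SLC16A1, held 114 to 140 against 28.5 to 60.4 FPKM. The class of sodium, protons, chloride, bicarbonate and calcium held 135 to 155 against 143 to 156 FPKM, and there the states overlapped. Of the 10 highest members of each state, 6 were shared. SLC16A1, SLC44A1 and SLC38A1 led in undifferentiated cells at 114, 87.9 and 66.2 FPKM, and SLC44A1, SLC15A2 and SLC35A4 in differentiated cells at 77.8, 49.9 and 41.6 FPKM. These sums are descriptions and were not tested.

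**Figure D3:**
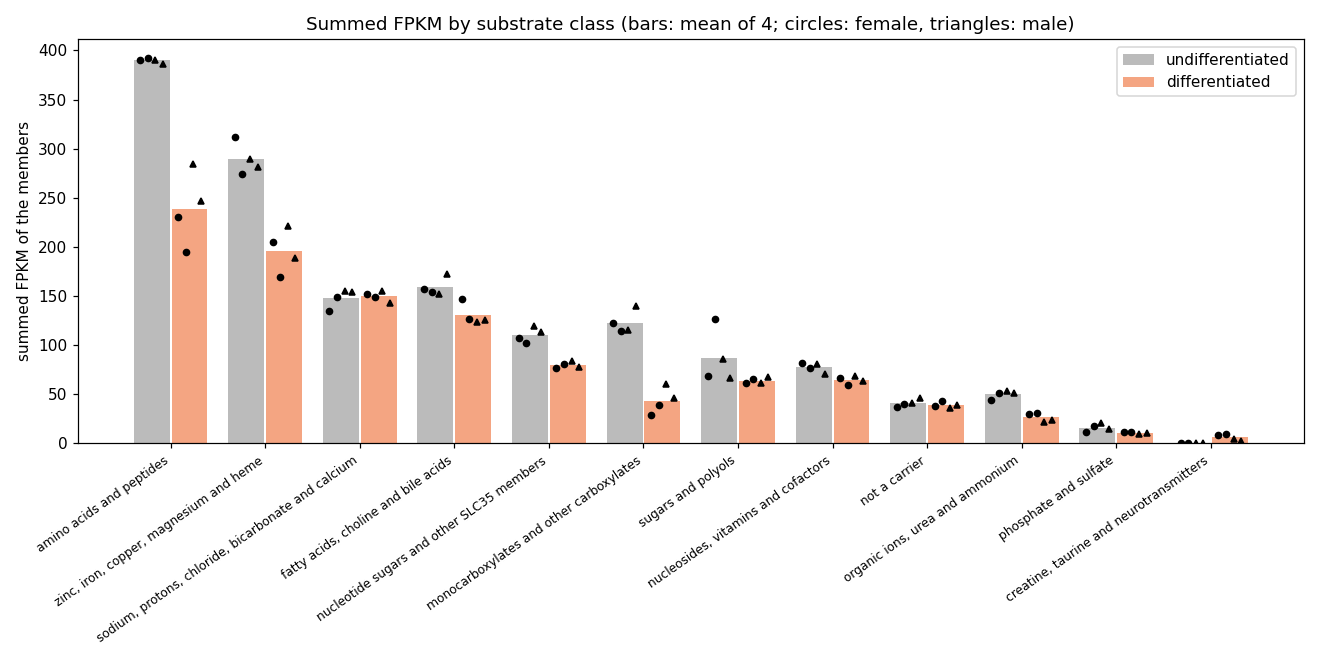
Summed FPKM of the members of each substrate class, with bars for the mean of the 4 libraries of a state and points for the libraries. The amino acid class drops from 387 to 392 FPKM to 195 to 285 FPKM, while the class of sodium, protons, chloride, bicarbonate and calcium overlaps between the states; the high undifferentiated point of the sugar class, 126 FPKM, is the female 2 library with its SLC2A13 of 59.7 FPKM.

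**Figure D4:**
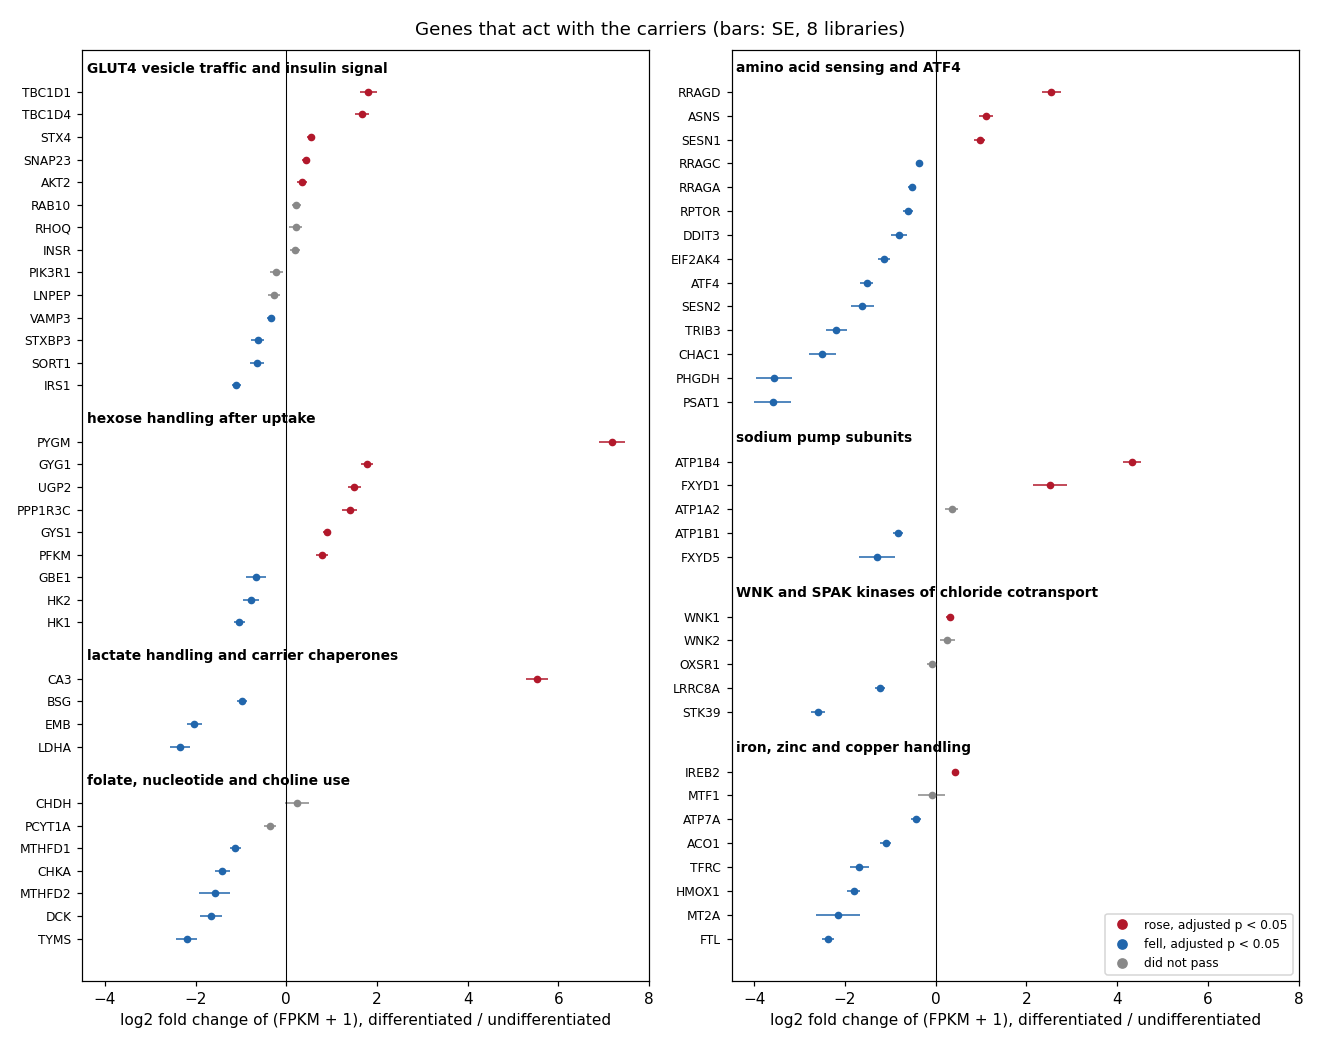
Log2 fold change of FPKM + 1 for genes that act with the carriers, by list, with SE bars over 8 libraries. Red genes rose, blue fell and grey did not pass; the amino acid list has 11 blue points, the metal list 6 and the GLUT4 traffic list 4, where 31.9% of all tested genes fell, and differences between lists were not tested.

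Within females 10 members rose and 29 fell, against 12.5% and 23.3% of all tested genes, and within males 10 rose and 26 fell, against 12.9% and 20.1%. The sign of the state effect was the same in both sexes for 90 of the 102 members and for all 56 called members. The calls rest on the mean of the 2 sexes, so the shared sign of called members was largely fixed in advance. The share over all tested genes was not computed. No member passed limma's test of the difference between the sexes, for which the lowest adjusted p was 0.804 and 12 members had an unadjusted p under 0.05, and 0.0231% of all tested genes passed. The members with the lowest p had log2 fold changes of -2.40 in females and -1.34 in males (SLC16A1), -2.52 and -1.78 (SLC38A1) and -2.31 and -1.37 (SLC38A5). No member passed limma's test of female against male averaged over the states, with 15 unadjusted p-values under 0.05, a lowest adjusted p of 0.228, in SLC36A4, and 0.0849% of all tested genes called. Each group had 2 libraries, the size of difference that could be detected was not measured, and the lack of calls does not show that the sexes are alike.

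**Figure D5:**
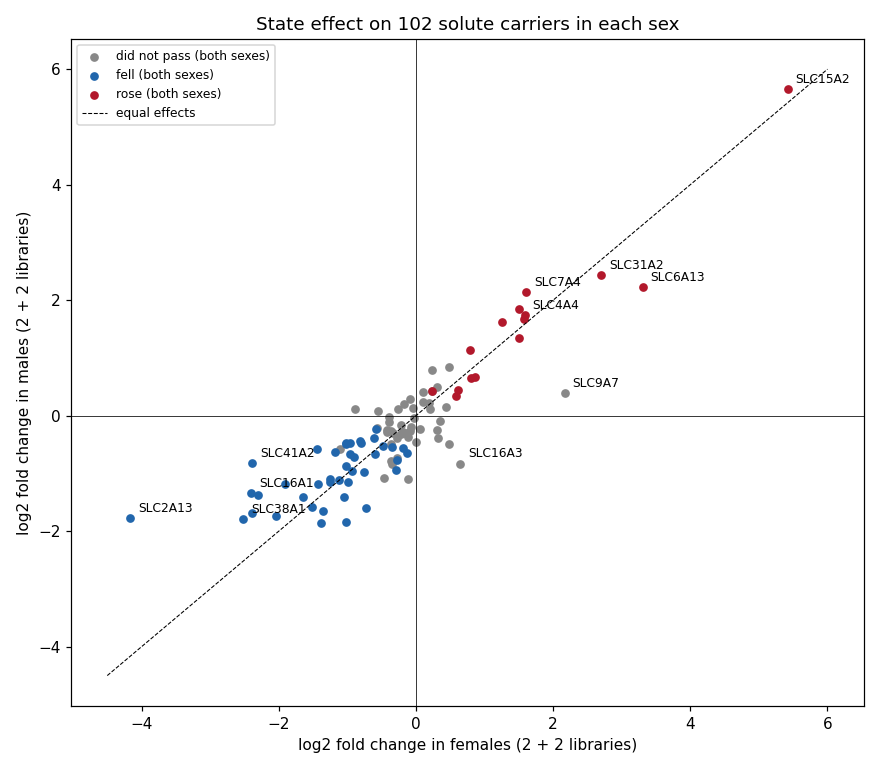
Log2 fold change of FPKM + 1 in females, on the x axis, against that in males, on the y axis, for the 102 members, each axis resting on 2 libraries per state. Colours give the call over both sexes. The 56 called members share their sign between the axes, which calling on the mean of both sexes largely fixes. SLC9A7 and SLC16A3 lie away from the line of equal effects.

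At the threshold, the 2 members just inside were SLC2A10 (mean 1.03 FPKM) and SLC29A4 (1.04 FPKM), and the 2 genes just outside SLC2A11 (0.994 FPKM) and SLC5A7 (0.986 FPKM). SLC2A10, a glucose carrier family member, was at 0.421, 0.84, 2.07 and 1.65 against 0, 0.789, 1.67 and 0.775 FPKM. SLC29A4, a monoamine and adenosine carrier, was at 0.994, 1.43, 1.31 and 0 against 1.02, 1.76, 0.216 and 1.62 FPKM. In all 4 of these genes the states overlapped.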

How the data were processed

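RNA-seq of 8 libraries was used. Per the labels, a strand-keeping total RNA kit and paired reads of 100 bp were used, although polyA RNA is entered as the molecule. The authors deposited FPKM per gene. Per the submitters' processing notes, cutadapt 1.6, TopHat2 2.0.12.1 and Cufflinks 2.2.1 were used on Sscrofa10.2, without stated settings or counting rules. A deposited column of library numbers per gene was not used. The depth in reads is unknown, and the relative depth was estimated from values below 0.3 FPKM.

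Values were taken as log2(FPKM + 1), with a pseudocount of 1. Genes averaging 1 FPKM or more were fitted with limma 3.58.1 in R 4.3.3 (lmFit, contrasts.fit and eBayes with trend), with a mean for each group and no block; the residual degrees of freedom were 4 and the prior ones 2.09. The script was tested on simulated data. Two-sided p-values were adjusted by Benjamini and Hochberg over all 12963 tested genes, and calls ("rose", "fell") needed an adjusted p below 0.05.

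Members, classes, lists and tests were chosen with earlier results of these data known. In each substrate class the 3 largest rises and 3 largest falls among called members without overlap of the states, and the highest member, were named, which gave 42 members with those near the threshold. In each list of other genes up to 3 rises and 3 falls were named. ATF4, FXYD5 and the members named to complete a class were picked with their values in view. Alternatives comprised a pseudocount of 0.1, no filter, median-ratio scaling, quantile normalization, a replicate block, leaving out genes under 300 bp, and leaving out each library. Leaving out differentiated male 1 from the lists of other genes was chosen after seeing the data. A few genes enter the counts but are not reported here by name. No sequences are shown.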

Additional observations from a re-analysis of the deposited data

Results flagged for a closer look

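In each state the highest or lowest of the 4 libraries was set against the others, and its gap to the nearest library was divided by the whole range. A share above Dixon's 95% critical value was picked out, as chance gives in about 1 in 20 sets. Of 84 sets of named members, 6 were picked out, and of 204 sets over all members 13.

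In undifferentiated female 2, SLC2A13 was at 59.72 FPKM against 13.66 in the next library, SLC10A3 at 24.47 against 21.28, and SLC39A14 at 13.13 against 21.54. SLC5A10 was at 0.1984 FPKM in undifferentiated female 1 and listed at 0 in the others. SLC31A2 was at 0.2562 FPKM in undifferentiated male 2 against 1.617 in the nearest library. SLC41A1 was at 5.303 FPKM in differentiated male 1 against 6.875 in the nearest. Over all members, undifferentiated female 2 was the outlying library in 5 of the 13 sets and undifferentiated male 2 in 3. All 6 members stayed on the same side of 0 in every fit without 1 library.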

How the results depend on the processing

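Of the 56 called members, 35 (10 rises and 25 falls) kept their call under all 14 alternatives, including the 8 that left out 1 library, and none changed sign. A group left with 1 library was assumed to vary like the others. The number of falls over both sexes was 41, and without a filter 27. Without the filter 25285 genes were tested, and the all-gene shares also dropped, to 10.19% risen and 13.69% fallen. Falls then made up 72.97% of the called members and 57.33% of all called genes. The counts without a filter, here and by class, stand against these lower shares and not against those of the filtered genes. Males had 16 falls without a filter instead of 26, and females 16 rises with median-ratio scaling instead of 10. Leaving out 1 library gave 10 to 14 rises and 29 to 37 falls over both sexes, 4 to 10 and 17 to 25 in females, and 6 to 10 and 10 to 26 in males. The tests between the sexes called 0 members under every alternative run, the block giving no value for female against male.

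By class, the falls without a filter were 0 of the fatty acid class (2 as reported), 1 of the vitamin class (3), 1 of SLC35 (4), 1 of the organic ion class (2), 0 of phosphate and sulfate (1) and 2 of the sugars (4), and the rises 0 of SLC35 (1), 2 of the sodium class (4) and 1 of the sugars (3). With median-ratio scaling the falls were 0 of the fatty acid class, 0 of the non-carriers, 1 of SLC35, 1 of the organic ions and 0 of phosphate and sulfate, and the 6 rises of the sodium class were within 1.5 times. Quantile normalization gave falls of 0 for the non-carriers, 1 for SLC35 and 1 for the organic ions, and a pseudocount of 0.1 gave 1 for the organic ions. Leaving out 1 library gave falls of 0 to 3 for fatty acids, 0 to 1 for non-carriers, 1 to 3 for vitamins, 1 to 3 for SLC35, 1 to 3 for organic ions, 0 to 1 for phosphate and sulfate, 2 to 4 for sugars, and rises of 0 to 1 for carboxylates, 0 to 1 for SLC35, 2 to 4 for the sodium class and 1 to 3 for sugars. The amino acid class kept 9 or 10 falls throughout. In the lists of other genes, leaving out differentiated male 1 kept each count of rises and falls within 1.5 times, except the Schwann cell list, whose 1 fall (S100B) was lost.

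Signs changed in 18 members that had not passed. With median-ratio scaling the log2 fold change was 0.031 for SLC44A1, 0.10 for SLC16A3, 0.062 for SLC4A1AP, 0.10 for SLC22A5, 0.15 for SLC26A2, 0.087 for SLC45A4 and 0.12 for SLC50A1. With quantile normalization it was 0.060 for SLC16A3, 0.038 for SLC4A1AP, -0.19 for SLC22A4, 0.11 for SLC26A2, -0.00342 for SLC8A2 and 0.10 for SLC50A1, and with a pseudocount of 0.1 -0.22 for SLC22A4. Without 1 library the log2 fold change ran from -0.051 to 0.14 in SLC15A4, from -0.64 to 0.14 in SLC1A3, from -0.041 to 0.37 in SLC36A1, from -0.046 to 0.71 in SLC27A1, from -0.32 to 0.14 in SLC16A3, from -0.13 to 0.47 in SLC29A4, from -0.22 to 0.22 in SLC22A4, from -0.24 to 0.17 in SLC22A5, from -0.22 to 0.14 in SLC26A2, from -0.0038 to 0.26 in SLC4A2, from -0.26 to 0.30 in SLC8A2, from -0.15 to 0.20 in SLC37A1, from -0.29 to 0.12 in SLC45A4, from -0.26 to 0.12 in SLC50A1, from -0.089 to 0.50 in SLC30A4, from -0.44 to 0.013 in SLC39A7. The cause was not tested.

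The labels number the replicates within each group. Libraries of the same number did not deviate together over genes (correlation 0.0684 in females and -0.0264 in males). This compares 1 difference per state in each sex, so it cannot decide whether they share an animal or culture. With a replicate block on sex and number, 14 members rose and 37 fell, 13 and 34 of them among the calls reported. The block gave 1 fall and 0 rises in SLC35 and 3 falls in the organic ion class. The depth in reads is unknown, so no floor can be given for members listed at 0.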

Other observations

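Genes outside the symbol rule that an identifier table names as SLC genes were examined after their values were seen. Of 34, 14 had a mean of at least 1 FPKM, and 7 of these fell (50%) and 1 rose (7.14%) by limma's adjusted p, beside 31.9% and 18.0% of all tested genes. The 7 include SLC3A2, a partner chain of carriers, and another gene model of the member SLC2A13.

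SLC3A2, the heavy chain that brings the SLC7 exchangers to the surface, was at 46.8, 64.2, 48.0 and 57.1 FPKM in undifferentiated and 20.9, 23.7, 23.5 and 19.5 FPKM in differentiated libraries. The states did not overlap (log2 fold change -1.26, limma adjusted p = 0.000846). SLC3A1, the heavy chain of the other branch, was at 1.69, 1.50, 1.09 and 1.40 against 9.74, 7.38, 9.99 and 7.11 FPKM, a rise without overlap (1.97, limma adjusted p = 0.000316). SLC7A11, the cystine importer that pairs with SLC3A2, was at 13.2, 37.3, 15.5 and 24.3 against 6.37, 4.16, 17.8 and 6.30 FPKM, and its states overlapped (-1.36, limma adjusted p = 0.0427). SLC6A17, a neuronal amino acid carrier, fell from 8.14 ± 2.26 to 0.603 ± 0.68 FPKM (SD, n = 4).

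SLC6A8, the creatine importer, was at 15.9, 18.0, 25.4 and 22.2 against 13.0, 14.8, 13.2 and 12.9 FPKM, a fall of the importer while CKM, the kinase that uses creatine, rose (-0.54, limma adjusted p = 0.00495). SLC23A2, an ascorbate importer, fell from 22.2 ± 1.65 to 8.40 ± 2.46 FPKM. A second gene model named SLC2A13 fell from 17.6 ± 4.67 to 3.96 ± 2.10 FPKM (log2 fold change -1.96, limma adjusted p = 0.000995). This model was at 22.2, 11.9, 20.5 and 15.7 FPKM in undifferentiated libraries. Female 2 was the lowest of these, while it was the highest for the member SLC2A13.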
